A study of Mus musculus with 20 samples.

Results

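Cytosolic ribosomal protein genes encode the proteins of the ribosome that translates nuclear messenger RNA. They were taken as the symbols Rpl or Rps with a number, the stalk symbols Rplp0 to Rplp2 and Rpsa, with a mean of at least 1 CPM (gene counts scaled to 1e+06 per library) over 20 retinal libraries. This rule kept 74 of the 80 matching symbols among 35006 genes, 44 of the large and 30 of the small subunit. Rps29 at 1.20 CPM and Rpl17 at 1.66 CPM lay just inside the limit. Rpl23a at 0.867 CPM, Rps27 at 0.605 CPM and Rps23 at 0.577 CPM lay just outside it, and Rpl3l, Rpl39l and Rpl10l were close to 0 with 47, 11 and 3 counts over all libraries.

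Each ribosome carries 1 copy of nearly every one of these proteins, so their genes are commonly seen to rise and fall together. Their messenger RNAs start with a run of pyrimidines, the terminal oligopyrimidine (TOP) tract, through which mTORC1 signalling and LARP1 set their translation. The genes are also the source of many processed pseudogenes, near-identical copies without introns elsewhere in the genome. In the retina, rod photoreceptors renew their outer segments throughout life and make protein at a high rate.

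The mice were wild-type C57BL/6J, an inbred laboratory strain, and differed in age and in treatment with NACET, the ethyl ester of N-acetylcysteine, which enters cells readily and raises cysteine and glutathione. Young control (4 libraries) stood for an age of 119 days and old control (4 libraries) for 668 days, both without NACET. In young NACET (6 libraries) the titles give 129 days for 4 libraries and 119 days for 2, and in old NACET (6 libraries) they give 668, 581 and 574 days for 2 libraries each. Treated mice drank NACET for 5 days at a daily intake of 50 mg/kg. The labels give 2 libraries of each young group as female and all other libraries as male, while the study's methods name male mice only. By the study's methods 1 retina of each mouse went into sequencing, so the libraries of a group are different mice.

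Gene counts ranged from 17.7 to 31.1 M per library (M, 1e+06 counts), of which the 74 genes took 54651 to 98518 counts. All 15 photoreceptor markers, 12 of 12 inner retina markers found and 7 of 7 Muller glia markers reached 1 CPM, and the photoreceptor list summed to 71796 to 109107 CPM. Markers of other tissues were uneven. Surface epithelium genes summed to 8.72 to 567 CPM in young NACET, 17.2 to 617 CPM in old control and 5.41 to 33.3 CPM elsewhere, and lens genes to 12871 CPM in old NACET replicate 1 against at most 26.2 CPM in the other libraries. Old control replicate 4 was labelled male but had 59555 counts of Xist, a transcript of the inactive X chromosome, against 5 to 15 in the other old libraries. The title and the batch tag of young NACET replicate 6 give different ages. Young control replicate 1 stood apart in the ribosomal protein genes themselves, and the main results that use the young controls are given with and without it.

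The start of the transcript carries the TOP tract for which this gene group is known. RefSeq start sites (GRCm38.p6) were found for 55 of the 74 genes, with 66 entries in all. The windows below hold 10 bases before the start and 16 from it, with the run of pyrimidines that begins at the first base in capitals. They are shown for genes whose values are described further on, and Rpl10 is the example of an entry without such a run.
Rpl15, chr14:18270971-18270996, minus strand: agaaagccttCTTCCTTTCCTCTggc
Rpl35, chr2:39005116-39005141, minus strand: ccgccctttcCTCTTTCTCTCgaacc
Rps10, chr17:27635229-27635254, minus strand: gcgcacgcccCTTCCTTTCCagcctc
Rps6, chr4:86857352-86857377, minus strand: gaagtcgggcCTCTTTTTCgtgacgc
Rps15a, chr7:118116132-118116157, minus strand: tttctgccatCTTCCCTCgccggtga
Rplp2, chr7:141447641-141447666, plus strand: cagcgtcttcCTTTCgccgccggacg
Rpl10, chrX:74270806-74270831, plus strand: tacagtggaagataggccgcctatat

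A C at the first base followed by at least 4 further pyrimidines was found in 12 of the 66 entries, 18.2%, and in 2.51% of all 32851 entries of the table. The longest run, 13 bases, was in Rpl15. Over the 300 bases from 250 before to 50 after the start, and on either strand, CCGGAAG (the core letters of ETS factor sites) was present in 37.9% of the entries against 8.86% of all entries. AAGATGG (core letters of YY1 sites) was present in 15.2% against 6.34%, and it shares the letters AAG with the former, so that a stretch can match both. The GC box GGGCGG was found in 60.6% against 35.7%, and TATAAA in 9.09% against 13.6%. These are matches of letters only, and a transcript whose real start lies a few bases away from the RefSeq start does not show its tract here.

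The second feature that the genes share is copies of their coding sequence. Each gene's first GENCODE transcript was cut into all windows of 50 bases, and each window was looked for in the rest of the mm9 genome on both strands. Copies bear on the counts, because the counter set aside reads with more than 1 alignment. Of the 74 genes, 25 had no coding window without an exact copy elsewhere, the median gene had 9.68% of its coding windows free of copies, and 11 genes had at least 50%. Copies clustered at a median of 7 other places per gene, and at up to 91 places for Rpl7a. The most copied coding stretch of 30 bases is given for genes at both ends of this range, with its first base counted from the start codon.
Rpl4, coding position 57, 2 copies elsewhere: caagaatgtcactttgccagctgtgttcaa
Rpl26, coding position 346, 12 copies elsewhere: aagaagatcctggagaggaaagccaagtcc
Rps6, coding position 634, 20 copies elsewhere: cttttggccaagagaatgaaggaagccaaa
Rpl21, coding position 96, 68 copies elsewhere: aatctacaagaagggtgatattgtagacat
Rpl7a, coding position 433, 76 copies elsewhere: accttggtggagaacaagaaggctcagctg

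Most of these proteins are present in equal numbers in the ribosome, but the measured levels of their genes were far apart. Per kb of transcript, the mean level over the 20 libraries ran from 2.14 CPM per kb for Rpl17, which lies at the exit tunnel, to 295 CPM per kb for Rps15, a protein near the decoding centre, a ratio of 138. The highest levels were those of Rps15 (295 CPM per kb), Rpl8 (294 CPM per kb), a protein close to the peptidyl transferase centre, Rplp1 (283 CPM per kb), a stalk protein, and Rpl4 (261 CPM per kb), whose loop narrows the exit tunnel. In counts, Rpl4, Rps3, Rpl8 and Rpl13a held 32.4% of the counts of all 74 genes. The smallest values in each subunit were those of Rpl17 (1.66 CPM), Rpl31 (2.41 CPM) and Rpl35 (2.79 CPM) and of Rps29 (1.20 CPM), Rps6 (2.17 CPM) and Rps28 (3.16 CPM). The median level was 16.9 CPM per kb for large and 23.5 CPM per kb for small subunit genes.

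These levels went with the share of coding windows free of copies. Spearman's rho between them was 0.73 over the 74 genes, and 0.72 and 0.74 with windows of 30 and 75 bases. With windows of the whole first GENCODE transcript, rho was 0.23. Some of these transcripts are long beside their coding sequence, such as Rps15a with 3721 bases of which 393 are coding. The same length divides the CPM, and where on the transcripts the reads lie was not tested. The genes share libraries and aligner settings and are not independent. The 25 genes with no free coding window had a median of 8.28 CPM per kb (range 2.14 to 72.1), and the 11 genes with at least 50% free a median of 151 CPM per kb (range 14.4 to 295). Rpl24 at 72.1 CPM per kb and Rpl10a at 68.6 CPM per kb were high although they had no free coding window, and Rps27l, an extra copy of Rps27 with a sequence of its own, was low at 14.4 CPM per kb although 51.0% of its windows were free. How far reads set aside for their copies lowered the levels was not tested.

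**Figure D1:**
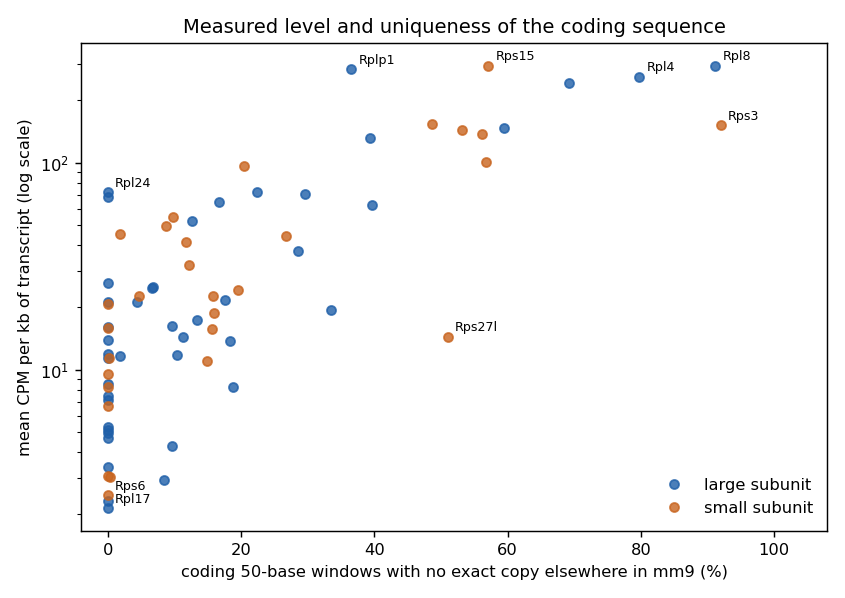
Mean CPM per kb of transcript over the 20 libraries (log scale) against the percent of coding 50-base windows with no exact copy elsewhere in mm9, with 1 point per gene, colours for the subunits and 1 of the 74 genes not drawn. Genes without a free window lie at 72.1 CPM per kb or lower, and Rpl8, Rps3 and Rpl4, with 79.8% or more free, lie at 151 CPM per kb or higher.

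Symbols that name pseudogenes of these genes carried counts of their own. The 155 such symbols took 0.0771% to 0.113% of gene counts per library, with a median of 0.0866%. Rpl14-ps1 reached 128 CPM where Rpl14 itself had 50.5 CPM, Rpl10a-ps1 94.3 CPM where Rpl10a had 56.9 CPM, and Rpl3-ps1 89.6 CPM where Rpl3 had 28.9 CPM. In 13 of the 74 genes the pseudogene symbols summed to more CPM than the gene. Reads of the gene and of its copies can be split between the symbols, and the level of each of these 13 genes is therefore uncertain. Exons of 15 of the 74 genes also overlap an exon of another gene in mm9, 13 of them on the opposite strand, and the counting did not use strand.

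The summed shares of the large and the small subunit genes, and their ratio, differed between groups by less than the spread in young control. The large subunit genes took 0.195% ± 0.0322 of gene counts in young control (SD, n = 4), 0.190% ± 0.0155 in young NACET (n = 6), 0.179% ± 0.00637 in old control (n = 4) and 0.185% ± 0.0104 in old NACET (n = 6). The small subunit genes took 0.149% ± 0.0298, 0.143% ± 0.0142, 0.135% ± 0.00422 and 0.140% ± 0.00893 in the same order. The ratio of large to small subunit counts was 1.32 ± 0.0473, 1.33 ± 0.0331, 1.32 ± 0.0129 and 1.32 ± 0.0179. These sums are given as a description, with no test.

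The single libraries show where the spread in young control came from. Both subunits together took 0.430% of gene counts in young control replicate 1, and 0.303%, 0.295% and 0.349% in replicates 2, 3 and 4. The other 19 libraries lay between 0.294% and 0.380%, the highest of them young NACET replicate 2. The ratio of the subunits was lowest in young control replicate 1, at 1.26 against 1.30 to 1.38 in the other libraries. Without it, young control had a summed share of 0.316% ± 0.0290 (n = 3), close to the old control mean of 0.314% ± 0.0105 (n = 4).

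**Figure D2:**
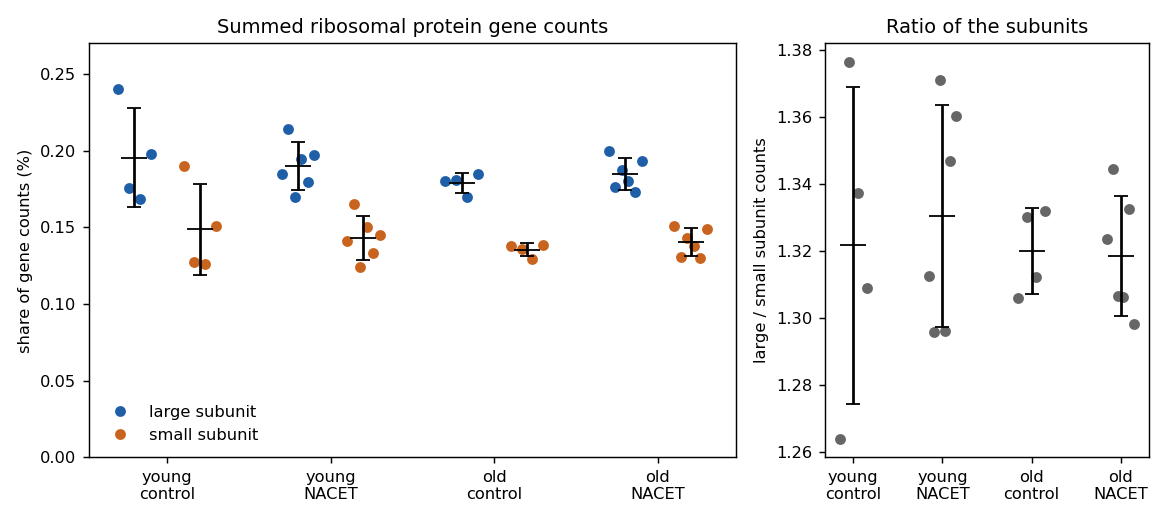
Left, percent of gene counts on the large and small subunit genes in each library (points), with mean and SD per group (bars); right, the ratio of the sums, on an axis that does not start at 0. Young control replicate 1 is the highest point for both subunits and the lowest ratio, at 1.26.

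Many of the genes were high or low in the same libraries. Against its own mean over the 20 libraries (log2 of CPM + 0.5), the median gene was 0.38 higher in young control replicate 1, where 64 of 74 genes were above their mean, and 0.16 higher in young NACET replicate 2, where 52 were. More genes than this, 61 and 54, were above their mean in old NACET replicates 1 and 6, by smaller amounts (medians 0.07 and 0.04). In the other libraries the median lay between -0.13 and 0.09. Young control replicate 1 was the highest of all 20 libraries for 48 of the 74 genes and the lowest for none. The median Pearson correlation over the 2701 pairs of genes was 0.36 across 20 libraries, and 0.20 across 19 without young control replicate 1. These pairs share the libraries and their depth, and the values are a description. The 10 genes below their mean in young control replicate 1 were Rpl10a, Rpl11, Rpl15, Rpl24, Rpl27, Rpl27a, Rpl31, Rps2, Rps13 and Rps15a.

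**Figure D3:**
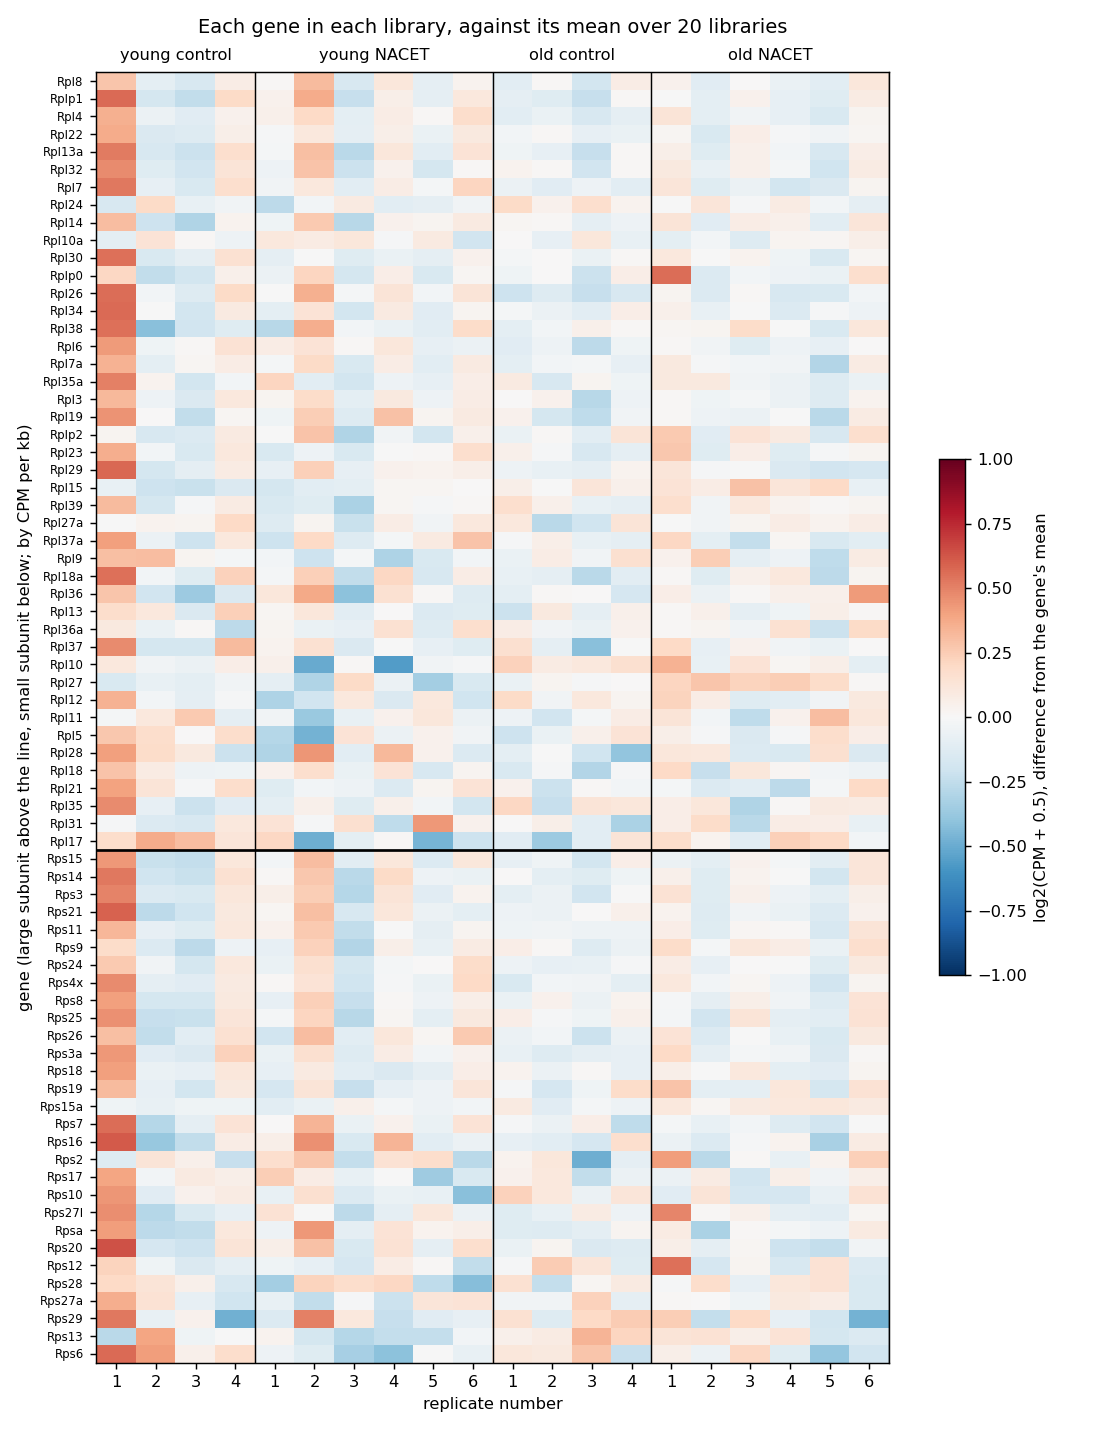
Each row is 1 gene and each column 1 library, coloured by the difference of log2(CPM + 0.5) from the gene's mean over 20 libraries, from blue (lower) to red (higher), with 1 of the 74 genes not drawn. The column of young control replicate 1 is red for most genes, with a median of 0.38, and the column of young NACET replicate 2 follows with 0.16.

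Some other values were also at an extreme in these 2 libraries, and some were not. Reads outside annotated genes were 14.3% in young control replicate 1 and 14.1% in young NACET replicate 2, and 16.2% to 20.5% in the other libraries. The pseudogene symbols were 0.38 and 0.31 higher in these libraries (median log2 difference from their mean), and -0.19 to 0.11 in the others. The 1106 other genes with under 1000 bases of exon were 0.14 higher in young control replicate 1 and 0.07 higher in young NACET replicate 2, with 0.08 in old NACET replicate 6. The proteins of the mitochondrial ribosome were 0.07 and 0.08 higher in the 2 libraries but 0.09 higher in both young NACET replicate 4 and old NACET replicate 6, while genes of ribosome biogenesis were lowest in young control replicate 1 (-0.11). Translation factors with a TOP tract were highest in young NACET replicate 2, at 0.15. The lens list was the highest of its group in neither of the 2 libraries, with at most 2.84 CPM in their groups. The blood list was highest among young controls in replicate 2, at 29.6 CPM. In young NACET it was also highest in replicate 2, at 21.0 CPM against a group median of 16.2 CPM. The epithelial list was at most 24.9 CPM in young control. The part of these measures in the ribosomal protein values was not tested.

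The spread within groups was widest in young control. The median coefficient of variation of the 74 genes was 17.6% in young control, 11.6% in young NACET, 7.05% in old control and 8.27% in old NACET, where counting error alone would give about 5% (4.80%, 5.03%, 4.84% and 4.96%). It was 10.7% in young control without replicate 1. Other genes at 1 CPM or more had 9.89% in young control, 10.4% in young NACET, 7.70% in old control and 7.40% in old NACET. Without replicate 1 these other genes had 6.85% in young control.

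The comparisons share groups with each other, so each is given with its own values and none is used as support for another. The first comparison asked how the genes differed with age in untreated retina. None of the 74 genes was called in edgeR's quasi-likelihood test at a Benjamini-Hochberg adjusted p under 0.05, where 1.42% of all 16484 genes tested were called (234 genes), and DESeq2 called none of the 74 either. At an unadjusted p under 0.05 there were 8 genes (10.8%, against 16.3% of all genes tested), 7 lower and 1 higher in old mice and all of the large subunit. Most of the genes were a little lower in old mice: 66 of 74 had a negative estimate, and the median log2 change was -0.16, with -0.18 for large and -0.16 for small subunit genes, against -0.01 over all genes tested. Without young control replicate 1 this median was -0.03 (large subunit -0.06, small subunit -0.01), and 28 of 74 estimates were above 0. Without old control replicate 4, whose Xist count goes against its label, it was -0.19. For labelled males only, which leaves 2 young controls with replicate 1 among them, it was -0.26. The count of 8 rose to 19 and 22 without young control replicates 2 and 3 and fell to 3 and 5 without old control replicates 3 and 1, and to 4 without young control replicate 1. The 95% interval of the change lay within 0.5 log2 units of 0 for 47 of the 74 genes, and for 11644 of the 16484 genes tested. In bulk retina, fewer cells of a type and less RNA per cell cannot be told apart.

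Rpl26, a protein at the exit tunnel that also binds the messenger RNA of p53, was the gene with the smallest p. It had 40.4, 26.9, 25.0 and 31.3 CPM in the young controls and 23.7, 25.0, 23.3 and 24.5 CPM in the old controls. The lowest young control lay just below the highest old control, and young control replicate 1 was far above the rest. The log2 change was -0.41 ± 0.14 (SE; adjusted p = 0.176, edgeR), and -0.23 (adjusted p = 0.161, edgeR) without young control replicate 1.

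Rpl6, a large subunit protein, was lower in all 4 old controls. It had 43.1, 30.9, 32.1 and 35.3 CPM in young and 29.4, 30.8, 26.4 and 30.9 CPM in old controls, so that the groups were apart by a very small gap, with a log2 change of -0.31 ± 0.11 (SE; adjusted p = 0.202, edgeR) that was -0.19 without young control replicate 1. Rpl17 had 1.91, 2.26, 2.13 and 1.81 CPM in young and 1.47, 1.16, 1.48 and 1.83 CPM in old controls. This is 18 to 56 reads per library over all groups, too few for a firm value, and its log2 change was -0.51 ± 0.18 (SE; adjusted p = 0.207, edgeR) and -0.52 without young control replicate 1.

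Rpl15, part of the large subunit core, went the other way. It had 29.2, 26.7, 26.3 and 27.9 CPM in young and 32.2, 30.7, 33.5 and 31.9 CPM in old controls, with no overlap and with young control replicate 1 the highest of its group. The log2 change was 0.17 ± 0.07 (SE; adjusted p = 0.247, edgeR), and 0.22 (adjusted p = 0.0985, edgeR) without young control replicate 1. Its exons overlap Nkiras1 on the opposite strand. Rpl15 was the only one of the 74 genes whose old controls were all higher, where 9.45% of genes tested had this pattern, and Rpl6 the only one whose old controls were all lower, against 1.81% of genes tested. Rpl24, a protein of a bridge between the subunits, and Rpl10, which is added late in ribosome assembly, had the next smallest p among the positive estimates, with 0.07 ± 0.07 and 0.09 ± 0.10 (SE).

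**Figure D4:**
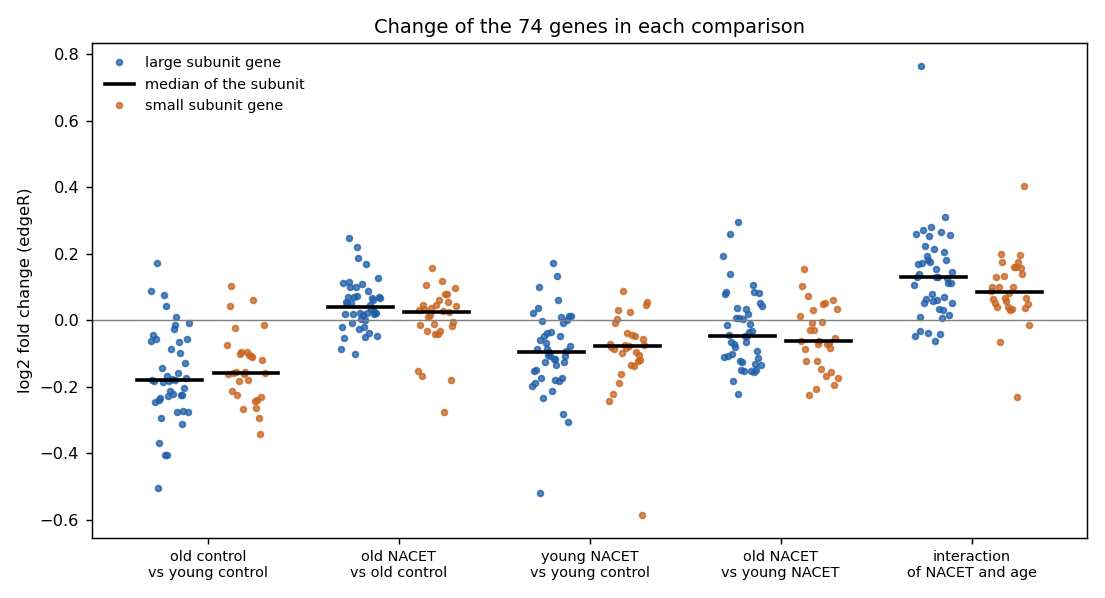
Log2 fold change of each of the 74 genes (points, by subunit) in the 5 comparisons, with the median of each subunit as a black bar. In old against young control the medians are -0.18 and -0.16, and in the other comparisons they lie closer to 0, and none of the points was called.

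The second comparison asked what 5 days of NACET did in old retina. The titles give 668 days for all 4 controls but for only 2 of the 6 treated libraries, so treatment and age are partly mixed. None of the 74 genes was called by edgeR or DESeq2, where edgeR called 0.543% of 16562 genes tested (90 genes), and 3 of the 74 had an unadjusted p under 0.05 (4.05%, against 14.4% of all genes tested). The changes were small: the median log2 change was 0.03 (large subunit 0.04, small subunit 0.03), 51 of 74 estimates were above 0, and the median over all genes tested was 0.00. The interval lay within 0.5 log2 units of 0 for 71 of the 74 genes, and for 13106 of the 16562 genes tested. This comparison holds no young library, and leaving out any 1 of its libraries gave medians between 0.02 and 0.05, among them old control replicate 4 (0.05) and old NACET replicate 1 (0.02).

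Rps15a, a small subunit protein that binds 18S ribosomal RNA, had 89.8, 77.9, 83.1 and 81.3 CPM in the old controls. In old NACET its lowest value was 85.5, its median 90.3 and its highest 91.5 CPM. All 6 treated libraries were above 3 of the 4 controls, and the log2 change was 0.11 ± 0.04 (SE; adjusted p = 0.218, edgeR). Rpl27, a large subunit protein, had 4.13, 4.44, 4.32 and 4.36 CPM in the old controls and 4.40, 5.16 and 5.39 CPM (lowest, median, highest) in old NACET. For Rpl27 5 of 6 treated libraries lay above all controls, with a log2 change of 0.22 ± 0.09 (SE; adjusted p = 0.293, edgeR). Rpl27 had no coding window free of copies. Rps9, which lines the messenger RNA entry, came next among the positive estimates with 0.10 ± 0.05 (SE; adjusted p = 0.436, edgeR).

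Among the negative estimates Rpl24 had the smallest p. It had 55.5, 50.2, 54.7 and 49.8 CPM in the old controls and 45.8, 48.5 and 52.9 CPM (lowest, median, highest) in old NACET, with a log2 change of -0.10 ± 0.05 (SE; adjusted p = 0.337, edgeR). The groups overlapped. Rps10, one of the proteins marked by ubiquitin when ribosomes collide, and Rps13 followed with -0.15 ± 0.09 and -0.17 ± 0.11 (SE). No member of the 74 had groups without overlap, where 1.76% of genes tested were higher and 1.81% lower in this way.

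The third comparison asked the same of young retina. By title all 4 controls were 119 days old and 4 of the 6 treated libraries 129 days, so treatment and age are partly mixed here too. EdgeR called 0% of the 16588 genes tested, none of the 74 among them, and DESeq2 called no gene either. At an unadjusted p under 0.05 there were 724 of all genes and 4 of the 74, these 4 all lower under NACET. The median log2 change was -0.09 (large subunit -0.09, small subunit -0.08), against 0.00 over all genes tested, and 16 of 74 estimates were above 0. Without young control replicate 1 the median was 0.06 (large subunit 0.05, small subunit 0.08), with 53 of 74 estimates above 0. The interval lay within 0.5 log2 units of 0 for 61 of the 74 genes, and for 12559 of the 16588 genes tested.

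Rps6, the protein that S6 kinase phosphorylates downstream of mTORC1, was lower in every treated library. It had 3.40, 3.02, 2.22 and 2.46 CPM in the young controls and 1.48, 1.96 and 2.12 CPM (lowest, median, highest) in young NACET. The log2 change was -0.59 ± 0.18 (SE; 95% interval -0.97 to -0.20; adjusted p = 1.000, edgeR). It rests on 31 to 75 reads per library, and 5.31% of the windows of its whole transcript had no copy elsewhere. Without young control replicate 1 the change was -0.46. Rpl9, which lies near the stalk base, had 10.9, 11.0, 8.93 and 8.60 CPM in the young controls and 6.97, 8.20 and 8.60 CPM (lowest, median, highest) in young NACET. The gap between the groups was smaller than these digits show, and the log2 change was -0.31 ± 0.11 (SE), or -0.24 without young control replicate 1. Rpl9 had no coding window free of copies. Its 6 pseudogene symbols summed to 52.0 CPM against 8.80 CPM for the gene, so its level is uncertain. Rps6 and Rpl9 were the 2 genes of the 74 with all treated libraries lower, where 0.205% of genes tested had this pattern. None of the 74 had all treated libraries higher, against 0.518% of genes tested.

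Rpl17 had 1.81 to 2.26 CPM in the young controls and 1.02, 1.42 and 1.95 CPM (lowest, median, highest) in young NACET, with a log2 change of -0.52 ± 0.20 (SE). The groups overlapped, and without young control replicate 1 the change was -0.53. The smallest p among the positive estimates was that of Rpl15, at 0.10 ± 0.07 (SE), followed by Rpl31 at 0.17 ± 0.17 (SE), on the rim of the exit tunnel, and Rps2 at 0.09 ± 0.12 (SE). None of Rpl15, Rpl31 and Rps2 had an interval that excluded 0.

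The fourth comparison set old against young mice when both were treated, with 6 libraries in each group. None of the 74 genes was called by edgeR or DESeq2, where edgeR called 4.88% of the 16276 genes tested (795 genes). At an unadjusted p under 0.05 there were 10 of the 74, 8 lower and 2 higher in old mice, 13.5% against 21.1% of all genes tested. This count was 3 without old NACET replicate 5 or young NACET replicate 2, 6 without old NACET replicate 2 or young NACET replicate 1, and 20 without young NACET replicate 3. The median log2 change was -0.05 (large subunit -0.05, small subunit -0.06), and 26 of 74 estimates were above 0, against 49.6% of all genes tested. For 71 of the 74 genes, and for 12858 of the 16276 genes tested, the interval lay within 0.5 log2 units of 0. No gene of the 74 had groups without overlap, where 3.29% of genes tested were higher and 0.786% lower in this way.

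Rpl26 had the smallest p. Its lowest, median and highest values were 26.9, 28.6 and 35.0 CPM in young NACET and 24.4, 25.8 and 27.8 CPM in old NACET. The upper values of the old group overlapped the lower values of the young group. The log2 change was -0.22 ± 0.07 (SE; adjusted p = 0.0732, edgeR), and without young NACET replicate 3 it was -0.25 ± 0.07 (SE; adjusted p = 0.0461, edgeR), the only call of any of the 74 genes in any of the fits.

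Rpl6 was -0.13 ± 0.05 (SE; adjusted p = 0.146, edgeR), with 30.2, 32.9 and 35.1 CPM (lowest, median, highest) in young NACET and 29.3, 30.9 and 32.2 CPM in old NACET. Rps20, a small subunit protein also marked by ubiquitin at collided ribosomes, was -0.21 ± 0.08 (SE; adjusted p = 0.147, edgeR). In the other direction stood Rpl27 at 0.30 ± 0.11 (SE; adjusted p = 0.120, edgeR), Rpl15 at 0.14 ± 0.06 (SE; adjusted p = 0.199, edgeR) and Rps15a at 0.07 ± 0.04 (SE; adjusted p = 0.273, edgeR). For Rpl27 the lowest, median and highest values were 3.33, 3.97 and 5.05 CPM in young NACET and 4.40, 5.16 and 5.39 CPM in old NACET. Most of the old libraries lay above the young ones, with an overlap between 4.40 and 5.05 CPM.

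The last comparison tested whether the change under NACET differed between the ages. It called 0% of 16993 genes in edgeR, none of the 74 among them, while DESeq2 called 86 genes and none of the 74. At an unadjusted p under 0.05 there were 1052 of all genes and 2 of the 74, these 2 both more positive in old mice. The median interaction was 0.11 (log2 change in old minus log2 change in young), with 66 of 74 estimates above 0, and -0.03 without young control replicate 1 (large subunit -0.00, small subunit -0.05), with 30 of 74 above 0. With all libraries, 51.9% of the genes tested had an estimate above 0. Rpl17 had the largest estimate, 0.77 ± 0.25 (SE; adjusted p = 0.457, edgeR), with group means of 2.03 ± 0.203 and 1.41 ± 0.360 CPM in young control and young NACET and 1.48 ± 0.273 and 1.77 ± 0.222 CPM in old control and old NACET (SD). Rpl5 followed with 0.31 ± 0.15 (SE; adjusted p = 0.794, edgeR) and Rps15a with 0.10 ± 0.05 (SE). The negative estimates with the smallest p were those of Rps29, Rpl10a and Rpl24, between -0.23 and -0.04, with intervals that include 0. Without young control replicate 1, Rpl17 was at 0.78, Rpl5 at 0.26 and Rps29 at -0.53.

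**Figure D5:**
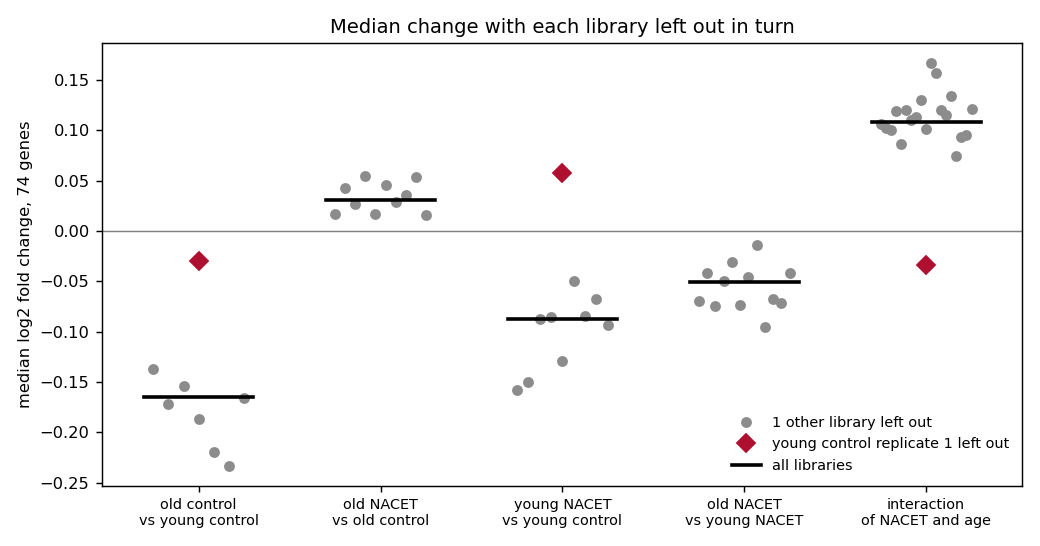
Median log2 change of the 74 genes in each comparison with all libraries (black bar), with each library left out in turn (grey points) and with young control replicate 1 left out (red diamonds). The diamonds stand at -0.03, 0.06 and -0.03, apart from the other points of their comparisons.

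The stalk proteins recruit the elongation factors to the ribosome. Rplp0 had 82.2 ± 12.3, 83.6 ± 8.80, 81.7 ± 6.80 and 89.7 ± 17.8 CPM over the groups in the order young control and treated, old control and treated (SD), Rplp1 151 ± 41.1, 144 ± 20.9, 129 ± 9.09 and 136 ± 7.92 CPM, and Rplp2 18.0 ± 1.60, 18.3 ± 2.70, 18.5 ± 1.35 and 19.5 ± 2.24 CPM. Without replicate 1, which had 206 CPM of Rplp1, the young control means were 77.2 ± 8.59 CPM for Rplp0, 133 ± 22.8 CPM for Rplp1 and 17.7 ± 1.81 CPM for Rplp2 (SD, n = 3). None had an unadjusted p under 0.05 in any comparison. Rplp0 was highest, at 124 CPM, in old NACET replicate 1, the library with the lens transcripts, which was also the highest of all libraries for Rps27l (10.2 CPM), Rps2, Rps12 and Rpl10. Whether lens tissue had a part in these values was not tested.

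Rpl5 and Rpl11 form a particle with the 5S ribosomal RNA that can bind MDM2, the ligase that holds p53 in check. Rpl5 had 11.2 ± 0.891, 9.31 ± 1.47, 9.90 ± 1.06 and 10.2 ± 0.793 CPM in the same order of the groups, and Rpl11 4.48 ± 0.541, 4.05 ± 0.495, 4.09 ± 0.350 and 4.44 ± 0.630 CPM (SD). Rpl5 was lower under NACET in young mice by estimate, -0.28 with an interval of -0.52 to -0.04, and -0.22 with an interval of -0.48 to 0.03 without young control replicate 1, and was not called. In a partial list of 6 proteins known to bind MDM2, none was called in any comparison. A partial list of 9 genes mutated in Diamond-Blackfan anaemia, an inherited failure of red cell production, had a median of -0.18 with age in controls. This was close to the -0.16 of the 74 genes, and it was -0.06 without young control replicate 1. Under NACET in old mice the median of these 9 genes was 0.03, and none was called.

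The 7 listed exit tunnel genes that passed the CPM limit had a median of -0.23 with age in controls and -0.15 in treated mice, against -0.16 and -0.05 over the 74 genes. Without young control replicate 1 the median in controls was -0.07. In each of these 2 comparisons 3 of the 7 had an unadjusted p under 0.05, where 16.3% and 21.1% of all genes tested did. In controls without young control replicate 1, 2 of the 7 had one. Under NACET it was 0 of the 7 in old mice, 1 in young mice and 1 in the interaction. Of all genes tested it was 14.4%, 4.36% and 6.19% in the same order. The 5 listed genes of the messenger RNA channel and decoding centre had -0.16 and -0.07, and -0.07 in controls without young control replicate 1. None of these genes was called. The list medians were not tested against the other genes.

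The X-linked genes Rps4x, Rpl10, Rpl36a and Rpl39 had no unadjusted p under 0.05 in any comparison. In young mice Rps4x had 48.9, 53.6 and 60.8 CPM (lowest, median, highest) in the 4 libraries labelled female and 46.1, 52.9 and 73.9 CPM in the 6 labelled male. The ranges of the labelled sexes overlapped for all 4 genes. Of the paralogs among the 80 symbols (Rpl3l, Rpl10l, Rpl39l and Rps27l, extra copies of a core gene), Rps27l alone reached 1 CPM, with 7.22 ± 1.93, 7.03 ± 0.758, 6.91 ± 0.446 and 7.54 ± 1.35 CPM in that order (SD), above the 0.605 CPM counted for Rps27, whose coding windows all have copies elsewhere. Paralogs with symbols outside the rule had 35.3 CPM (Rpl7l1), 17.4 CPM (Rpl22l1) and 9.18 CPM (Rpl36al). Rpl3 had 30.2 ± 4.45, 29.7 ± 2.14, 27.5 ± 2.66 and 28.1 ± 1.17 CPM.

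Genes around the ribosome were called only between old and young treated mice. Of 15 translation factors with a TOP tract 1 was lower, Tpt1 (translationally controlled tumour protein), with 35.7 ± 3.54 CPM in old and 43.7 ± 6.19 CPM in young NACET (SD; log2 change -0.34 ± 0.09 SE, adjusted p = 0.0392, edgeR). Of 22 initiation factors 1 was lower, Eif2s3x, the X-linked gamma subunit of eIF2, with a log2 change of -0.48 ± 0.13 (SE; adjusted p = 0.0374, edgeR). Eif2s3x is known to escape X inactivation, and the young group holds 2 libraries labelled female and the old group none. The part of sex in this value was not tested. Of 39 ribosome biogenesis genes 1 was higher, Dkc1, the pseudouridine synthase of ribosomal RNA, with 0.14 ± 0.04 (SE; adjusted p = 0.0438, edgeR). Of 19 control genes 1 was lower, Rptor, the subunit that gives mTORC1 its substrates, with 107 ± 4.85 CPM in old and 120 ± 8.82 CPM in young NACET (SD; log2 change -0.21 ± 0.05 SE, adjusted p = 0.0225, edgeR). Of 76 genes of the mitochondrial ribosome 1 was lower, Mrpl42, with -0.31 ± 0.08 (SE; adjusted p = 0.0333, edgeR). These counts stand beside the 4.88% of all genes called there. In the other 4 comparisons edgeR called none of these lists, none of the 6 ribosomal genes with other symbols such as Gnb2l1, and none of the pseudogene symbols tested.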

How the data were processed

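Reads of 20 mouse retina libraries, made from polyadenylated RNA with a TruSeq kit, were aligned by the authors to mm9 with TopHat2 2.1.0 and Bowtie, and the deposited counts per gene were made with HTSeq 0.11.2 over exons, without strand. The gene annotation is not given in the sources used here. HTSeq sets aside reads with several alignments (6.65% to 7.92% here), which bears on genes with copies. A row without a gene name, at most 0.00218% of gene counts, and the counter's summary lines were left out.

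Groups came from the labels. Each comparison was fitted on its own groups, and the interaction on all 20 libraries, with edgeR 4.0.16 (quasi-likelihood test, TMM, filterByExpr) in R 4.3.3. P-values were Benjamini-Hochberg adjusted over all genes tested, and genes at an adjusted p under 0.05 are referred to as called. All 74 genes passed the filter in each comparison. The pipeline was tested on simulated data. CPM values are counts over gene counts, and CPM per kb are divided by the length of the first transcript in GENCODE, a different annotation from that of the counting, in which 33643 of the 35006 names were found. Counts of 17.7 to 31.1 M per library give a counting error of about 5% for the median member (4.80% to 5.03%). Alternatives were DESeq2 1.42.0, other scalings, filters and covariates, a replicate block and leaving out each library.

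The members and gene lists were chosen with earlier results of these data known. Named are called genes, otherwise the 3 smallest p-values in each direction, the 3 highest and 3 lowest genes by CPM in each subunit, the stalk, 5S particle, X-linked and paralog genes with their parents, and called genes of related lists. Genes with the highest level per kb, genes with pseudogene counts and genes at the limit of the rule were named after their values were seen. The values of 1 member, and shares against 1 other total, are not reported here.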

Additional observations from a re-analysis of the deposited data

Results flagged for a closer look

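In 5 of 160 groups of values tested (3.13%), 1 library lay far from the others of its group, where chance alone gives about 1 in 20. Rpl35 was at 4.02 CPM in young control replicate 1, against 2.31 to 2.58 CPM in the other young controls, and at 2.15 CPM in old NACET replicate 3, against 2.80 to 3.03 CPM. Rps15a was at 80.1 CPM in young control replicate 2, against 81.8 to 82.2 CPM, and at 85.5 CPM in old NACET replicate 2, against 89.7 to 91.5 CPM. Rps27l was at 10.2 CPM in old NACET replicate 1, against 6.58 to 7.41 CPM. That library also holds the lens transcripts (12871 CPM), and their part in the Rps27l value was not tested.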

How the results depend on the processing

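Over 121 alternative fits the members' median kept its direction in 119, and 723 of 726 values of named genes kept their direction and their side of the threshold. With 1 library left out, the median ranged from -0.23 to -0.03 (old against young control), 0.02 to 0.05 (NACET in old), -0.16 to 0.058 (NACET in young), -0.09 to -0.01 (old against young NACET) and -0.034 to 0.17 (interaction), and the values 0.058 and -0.034 arose without young control replicate 1. The number of members called between old and young NACET ranged from 0 to 1, the call being Rpl26 without young NACET replicate 3. The interaction of Rpl10a ranged from -0.087 to 0.00094 (without old control replicate 3), and that of Rps29 was 0.049 with mice of 119 and 668 days by title only.

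Same-numbered libraries did not deviate together (r from -0.13 to 0.12, 1 of 18 pairs over 0.1), so the numbers were not taken to pair them. With the replicate number as a block, 0 members were called in all 5 comparisons, with medians of -0.15, 0.04, -0.07, -0.05 and 0.10, and all genes called went from 234, 90, 0, 795 and 0 to 163, 17, 6, 422 and 0. DESeq2 called 721, 375, 0, 1326 and 86 of all genes. Between the controls edgeR called 69 genes among labelled males only, 79 with labelled sex as a covariate and 461 with all 4 groups in 1 fit. Under NACET in old mice it called 1 with all 4 groups in 1 fit, 1 with the 668-day cohort as a covariate, 0 in 668-day mice only, 49 at a mean CPM of at least 1 and 150 without the expression filter. Without that filter it called 49 in the interaction, and among labelled males only 1 under NACET in young mice. The causes were not tested. Genes at a few CPM, such as Rpl17 with 18 to 56 reads, are limited by depth.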
